A study of Mus musculus with 12 samples.

Results

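The retinoid group described here has 9 genes. They are the retinoic acid carriers Crabp1 and Crabp2, the retinol uptake receptor Stra6, the synthesis enzymes Dhrs9, Aldh1a1 and Aldh1a3, and the retinoic acid receptors Rara, Rarb and Rarg. They were chosen by name, after their levels in all 4 groups of these libraries were known, so their levels are given as a description. Differences with their intervals, and the number past the threshold used for all genes, describe the members too and are not tests of them. The 9 were matched by symbol among 23235 gene symbols, and each had 1 row in every library.

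Polyadenylated RNA was sequenced from FVB/NJ mice in 12 libraries, 3 in each of 4 groups. Epidermis came from shaved mice killed 24 h after 400 µL of 20% camphor white oil (CWO), an essential oil, or of acetone alone as vehicle. It was separated from the skin with ammonium thiocyanate, and for each treatment the 3 samples whose RNA was most intact went on to sequencing. Papillomas, benign skin tumours, grew in mice shaved at 6 to 7 weeks of age, given 400 nmol of the carcinogen DMBA and then repeated doses of 10 nmol of the tumour promoter TPA each week. The tumour-bearing mice then had 6 weeks of 20% CWO or of acetone vehicle, and 4 tumours judged pre-malignant were pooled from each of 3 mice per treatment. Both papilloma groups therefore carry DMBA and TPA, neither epidermis group does, and length of treatment and way of preparing the tissue also differ between the tissues, so these differences cannot be told apart.

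Vitamin A reaches skin as retinol bound to a blood carrier and can enter cells through STRA6. Cells store it as esters or oxidise it, first reversibly to retinal and then irreversibly to retinoic acid by the retinaldehyde dehydrogenases of the Aldh1a family. CRABP proteins hold retinoic acid in the cytoplasm, CYP26 enzymes break it down, and the receptors of the Rar family, paired with Rxr proteins, bind DNA at response elements and switch genes on when retinoic acid is bound. In epidermis this signal governs how keratinocytes divide and mature.

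Levels are in FPKM, the number of sequenced fragments scaled to transcript length and to all mapped fragments. Recovered fragments per library numbered 11.1 to 24.6 M (mega) in epidermis and 15.6 to 20.4 M in papillomas, and 11838 to 12452 symbols reached an FPKM of 1. Basal keratinocyte markers (Krt5, Krt14 and 4 others) summed to an FPKM of 5571 to 9889 in epidermis and 19083 to 21695 in papillomas, so keratinocyte RNA was present in every library. The epidermis libraries also held skeletal muscle RNA. Its 8 markers summed to 9124 and 14812 in vehicle replicates 1 and 2, against 2453 to 3142 in the other 4 epidermis libraries and 3.5 to 307 in papillomas. Fibroblast and dermis markers, 8 genes, summed to 46.8 to 123 in epidermis and 565 to 877 in papillomas. In such bulk samples, fewer cells of a type and less RNA per cell cannot be told apart.

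In the deposited files (mm9 build), the loci are chr9:54612615-54620916 for Crabp1, chr3:87752615-87757294 for Crabp2, chr9:57976895-58001804 for Stra6, chr2:69218519-69241143 for Dhrs9, chr19:20676472-20717952 for Aldh1a1, chr7:73535779-73572363 for Aldh1a3, chr11:98799010-98836256 for Rara, chr14:17263354-17407724 for Rarb and chr15:102065371-102087914 for Rarg. Promoter windows from RefSeq (GRCm38.p6 build, 250 bases before to 50 after each gene start) were matched for 7 of the 9, not for Crabp2 and Aldh1a3. The classical retinoic acid response element is a pair of hexamers in the same direction. The windows were searched on both strands for 2 copies, in any mix, of the hexamer AGGTCA, the variant AGTTCA, the variant GGGTCA or the variant GGTTCA, with a spacer of any 5, 2 or 1 bases. The 5-base spacing was found in the Rarb window and in no other of the 7, and it occurs in 0.115% of the 27025 genes with a window. Neither of the shorter spacings was found in any of the 7, against 0.311% of genes for 2 bases and 0.263% for 1 base. The pattern TGANTCA, a looser form of the TPA response element with any base in the middle, reads as the same pattern on either strand. It was found as TGACTCA in the windows of Dhrs9 and Aldh1a1, the latter at the more upstream of its 2 windows. The looser pattern occurs in 8.97% of all genes with a window. These matches are letters in a window and do not show that a factor binds there.

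The Rarb sequence is shown because, of the 7 windows, it alone holds the pair of hexamers, and Rarb had the lowest mean of the 9 in every group. It covers the 250 bases before the gene start (GRCm38.p6, chr14:16575477-16575726, minus strand), and the capitals mark the pair of hexamers with its spacer, ending 36 bases before the start. The Dhrs9 sequence is shown as the single window of a member with TGANTCA close to its start. It covers the 100 bases before the start (GRCm38.p6, chr2:69380362-69380461, plus strand), with TGANTCA in capitals, ending 11 bases before the start.
Rarb: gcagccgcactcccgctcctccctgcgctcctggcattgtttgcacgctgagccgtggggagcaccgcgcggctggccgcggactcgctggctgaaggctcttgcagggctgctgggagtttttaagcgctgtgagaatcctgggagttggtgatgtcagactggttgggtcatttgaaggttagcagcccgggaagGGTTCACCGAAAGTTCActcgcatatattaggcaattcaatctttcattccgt
Dhrs9: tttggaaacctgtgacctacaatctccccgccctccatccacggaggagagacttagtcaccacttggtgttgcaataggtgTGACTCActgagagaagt

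Crabp1, Crabp2, Stra6, Dhrs9 and Aldh1a3 were higher in papillomas, and Aldh1a1, Rara and Rarg were lower. For each of them the libraries of the tissues did not overlap within either treatment. How many of all genes separate in this way was not counted, so nothing is read from the separation. Under vehicle all 8 members above the filter (FPKM 1 or more in 3 or more libraries of the fit) lay past the threshold used for all genes, a limma adjusted p under 0.05, with 5 higher and 3 lower. In the same comparison 31.8% of the 12790 genes tested were called higher and 38.3% lower, and since the members were chosen on these levels nothing is read from their count. Under CWO it was again 5 higher and 3 lower of 8, beside 29.1% and 39.7% of 12691 genes. The 2 tissue comparisons use different libraries and are set side by side.

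**Figure D1:**
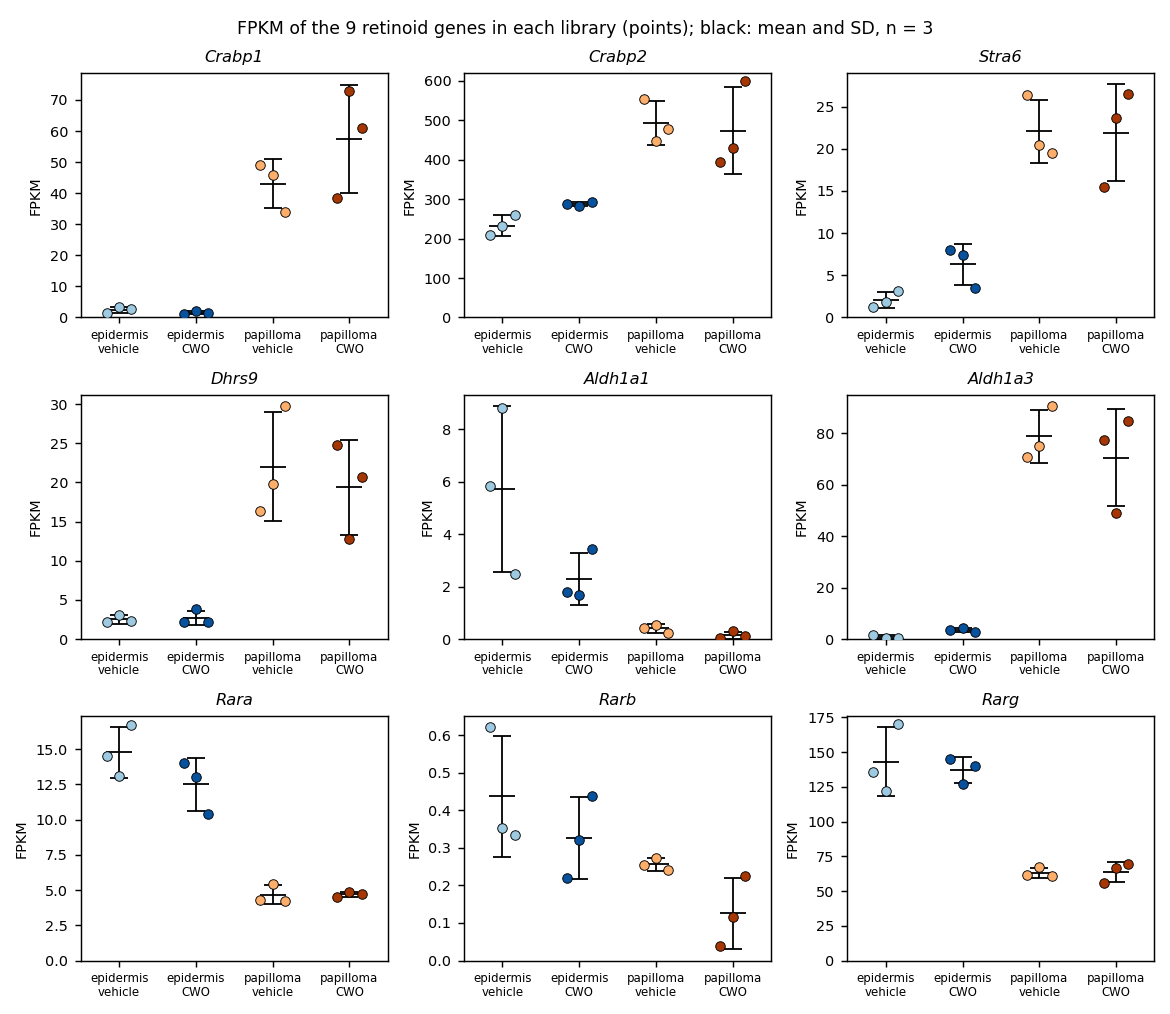
FPKM of the 9 genes (y axis, linear from 0, own scale per panel) in the 3 libraries of each group (x axis), with the group mean and SD in black. Crabp1, Crabp2, Stra6, Dhrs9 and Aldh1a3 are high in both papilloma groups, Aldh1a1, Rara and Rarg are high in both epidermis groups, and Rarb stays under an FPKM of 1.

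Of the carriers Crabp2 had the highest mean FPKM of the 9 members in every group, while Crabp1 lay below Rarg in every group. Crabp2, which delivers retinoic acid to the receptors, had an FPKM of 208, 233 and 260 in vehicle epidermis, 289, 283 and 292 in CWO epidermis, 555, 447 and 479 in vehicle papillomas and 394, 429 and 600 in CWO papillomas. Each papilloma library was above each epidermis library. The mean was 494 ± 55.6 (SD, n = 3) against 233 ± 25.8 (SD, n = 3) under vehicle, 2.12-fold, and 1.65-fold under CWO.

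Crabp1, the second carrier, had an FPKM of 1.5, 3.42 and 2.62 in vehicle epidermis, 1.06, 2.18 and 1.48 in CWO epidermis, 49.2, 46 and 34.1 in vehicle papillomas and 38.6, 73 and 60.9 in CWO papillomas. All 6 epidermis libraries were low, resting on 10 to 34 fragments each, and all 6 papilloma libraries were at 34.1 or above. The papilloma mean was 17.2 times that of epidermis under vehicle and 36.5 times under CWO. On the log2(FPKM + 1) scale the difference was 3.67 (SE 0.223, 95% interval 3.16 to 4.19) under vehicle and 4.48 (SE 0.245, 95% interval 3.92 to 5.04) under CWO. Crabp1 made up 0.366% to 1.45% of the summed FPKM of both carriers in epidermis and 6.65% to 14.5% in papillomas, so Crabp2 was the main carrier transcript in each library. The fibroblast and dermis markers were likewise higher in papillomas, with 7 of 8 called higher in each tissue comparison. Of all genes 31.8% were called higher under vehicle and 29.1% under CWO. Other lists moved as well. Under vehicle 5 of 8 hair follicle and 5 of 5 endothelium markers were called higher, and 8 of 8 muscle and 8 of 8 sebaceous gland markers lower. The part of any of these cell types in the Crabp1 difference was not tested.

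**Figure D2:**
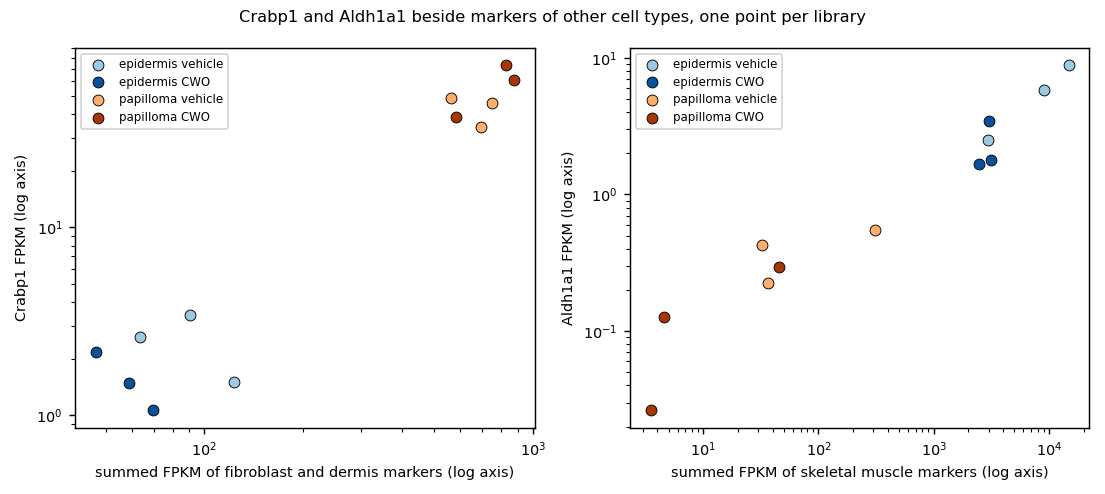
Left, Crabp1 FPKM against the summed FPKM of 8 fibroblast and dermis markers. Right, Aldh1a1 FPKM against the summed FPKM of 8 skeletal muscle markers. Both axes are logarithmic, and each point is 1 library. Papilloma libraries sit high for Crabp1 and fibroblast markers together (565 to 877), and vehicle epidermis replicates 1 and 2 sit highest for both Aldh1a1 and muscle markers.

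Stra6, the membrane receptor that takes up retinol, had an FPKM of 1.3, 1.81 and 3.17 in vehicle epidermis, 7.97, 7.46 and 3.51 in CWO epidermis, 26.4, 20.4 and 19.5 in vehicle papillomas and 15.5, 23.6 and 26.5 in CWO papillomas. The group means form 3 levels, with vehicle epidermis lowest, CWO epidermis between, and both papilloma groups together at the top. The epidermis groups came close, with the highest vehicle library at 3.17 and the lowest CWO library at 3.51. Their difference was not past the threshold used for all genes. Papillomas were 10.6-fold higher under vehicle and 3.46-fold higher under CWO.

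Dhrs9, a dehydrogenase that turns retinol into retinal, had an FPKM of 2.11, 3.1 and 2.31 in vehicle epidermis, 2.22, 3.78 and 2.2 in CWO epidermis, 16.4, 19.8 and 29.8 in vehicle papillomas and 24.8, 12.8 and 20.7 in CWO papillomas. Treatments overlapped within each tissue, and the tissues did not overlap. The papilloma mean was 8.78-fold higher under vehicle and 7.11-fold higher under CWO.

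Aldh1a3, a retinaldehyde dehydrogenase that makes retinoic acid, had the largest SD of log2(FPKM + 1) over the 12 libraries of the 9 members, 2.53. Its FPKM was 1.72, 0.54 and 0.423 in vehicle epidermis, 3.53, 4.21 and 2.69 in CWO epidermis, 70.8, 75 and 90.4 in vehicle papillomas and 77.3, 49 and 84.8 in CWO papillomas. It was close to undetected in vehicle epidermis, where 19 to 76 fragments were behind each value, and 2634 to 5631 fragments were behind each papilloma value. The papilloma mean was 87.9-fold that of epidermis under vehicle and 20.2-fold under CWO, with log2(FPKM + 1) differences of 5.45 (SE 0.239, 95% interval 4.90 to 6.00) and 3.97 (SE 0.216, 95% interval 3.48 to 4.47).

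Aldh1a1, a second retinaldehyde dehydrogenase, went the other way. Its FPKM was 5.84, 8.81 and 2.49 in vehicle epidermis, 1.79, 1.66 and 3.45 in CWO epidermis, 0.428, 0.551 and 0.225 in vehicle papillomas and 0.0263, 0.293 and 0.127 in CWO papillomas. Each papilloma value rested on 1 to 20 fragments. The epidermis mean was 14.2-fold higher under vehicle and 15.5-fold higher under CWO. Aldh1a1 passed the filter of the tissue comparisons through the 3 epidermis libraries alone, so leaving out any 1 of them takes it out of the comparison, which then has 7 members. With vehicle replicates 1 and 2, the muscle-rich libraries, set aside, the remaining vehicle library, at 2.49, was above every papilloma library. That library still had a muscle marker sum of 2977, against 3.5 to 307 in papillomas. The part of muscle RNA in the Aldh1a1 difference between tissues was not tested. Aldh1a1 has a close copy, Aldh1a7, and 6.54% of the 50-base words of the longest Aldh1a1 transcript (GENCODE vM21, GRCm38) also occur in the longest Aldh1a7 transcript, so part of either value could come from the other gene.

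Under vehicle the leading member of the Aldh1a family differed between the tissues, while under CWO Aldh1a3 led in 2 of 3 epidermis libraries as it did in papillomas. Of the summed FPKM of Aldh1a1, Aldh1a2 and Aldh1a3, Aldh1a1 held 74.8% to 92.9% in vehicle epidermis, 28% to 55% in CWO epidermis and under 1% in papillomas. Aldh1a3 held 5.7% to 22.1%, 42.9% to 71.1% and 99.1% to 99.7%. The sum itself was 2.97 to 9.49 in vehicle epidermis, 5.32 to 6.28 in CWO epidermis and 49.3 to 90.7 in papillomas. Aldh1a2, the main enzyme of the early embryo, stayed at or under an FPKM of 0.247 in all 12 libraries.

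**Figure D3:**
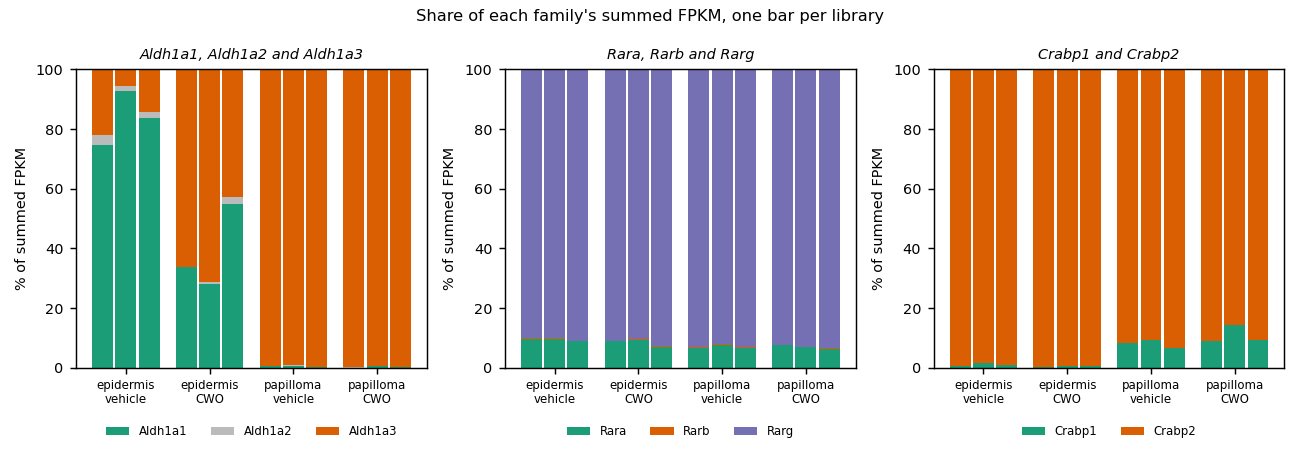
Share of the summed FPKM (y axis, %) held by each member of 3 families, with 1 bar per library and 3 libraries per group. The Aldh1a sum passes from mostly Aldh1a1 in vehicle epidermis (74.8% to 92.9%) to almost entirely Aldh1a3 in papillomas (99.1% to 99.7%), while Rarg holds 90% to 93.3% of the receptor sum throughout.

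Among the receptors, Rarg, the main retinoic acid receptor of skin, had an FPKM of 136, 122 and 170 in vehicle epidermis, 145, 127 and 140 in CWO epidermis, 61.5, 67 and 60.6 in vehicle papillomas and 55.5, 66.3 and 69.6 in CWO papillomas. Every epidermis library was above every papilloma library, and the epidermis mean was 2.27-fold higher under vehicle and 2.15-fold higher under CWO.

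Rara, the widely expressed receptor, had an FPKM of 14.5, 13.1 and 16.7 in vehicle epidermis, 14, 13 and 10.4 in CWO epidermis, 4.33, 5.44 and 4.23 in vehicle papillomas and 4.53, 4.87 and 4.74 in CWO papillomas. It was 3.16-fold higher in epidermis under vehicle and 2.65-fold higher under CWO. Rarg held 90% to 93.3% of the summed FPKM of the 3 receptors in every library, and Rara most of the rest.

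Rarb, the receptor whose promoter window holds the hexamer pair printed above, had an FPKM of 0.621, 0.354 and 0.335 in vehicle epidermis, 0.22, 0.322 and 0.438 in CWO epidermis, 0.254, 0.274 and 0.24 in vehicle papillomas and 0.0374, 0.116 and 0.225 in CWO papillomas. It stayed below the filter in each comparison, and no difference is read from 2 to 22 fragments per library.

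For 5 of the 9 genes the order of group means put both papilloma groups above both epidermis groups, and for 4 it was the reverse. Neighbours in that order that did not differ beyond the range of their libraries were the 2 papilloma groups for every member except Rarb, and the 2 epidermis groups for Crabp1, Dhrs9, Aldh1a1, Rara, Rarb and Rarg. For Rarb, epidermis given CWO and papillomas given vehicle overlapped too.

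CWO against vehicle in epidermis asked what a single application did within 24 h. Aldh1a3, Stra6 and Crabp2 were higher in each CWO library than in each vehicle library. The share of all genes that separate like this was not counted, so nothing is read from it. The mean of Aldh1a3 was 3.48 ± 0.76 against 0.896 ± 0.719 (SD, n = 3 each), 3.88-fold. The mean of Stra6 was 6.31 ± 2.44 against 2.09 ± 0.964 (SD, n = 3 each), 3.02-fold, and that of Crabp2 was 288 ± 4.65 against 233 ± 25.8, 1.23-fold. On the log2(FPKM + 1) scale the differences were 1.29 (SE 0.26, 95% interval 0.69 to 1.88) for Aldh1a3, 1.22 (SE 0.305, 95% interval 0.52 to 1.92) for Stra6 and 0.31 (SE 0.114, 95% interval 0.05 to 0.57) for Crabp2.

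The mean of Aldh1a1 was 0.403 times that of vehicle, a log2(FPKM + 1) difference of -0.94 (SE 0.365, 95% interval -1.78 to -0.11), and the libraries overlapped. Its 2 highest values were in the muscle-rich vehicle replicates 1 and 2, and without them the difference was -0.12, against 1 vehicle library. The part of muscle RNA in the difference was not tested. Without vehicle replicates 1 and 2 the difference was 0.75 for Stra6, 0.15 for Crabp2 and 1.64 for Aldh1a3. Those of Stra6 and Crabp2 were smaller by over 1.5 times, again against 1 vehicle library. Crabp1, Dhrs9, Rara and Rarg overlapped between treatments, with mean ratios of 0.626, 1.09, 0.846 and 0.96.

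Of the 8 members above the filter in epidermis, 1 lay past the threshold for all genes, Aldh1a3, higher under CWO, beside 1.81% of 12289 genes called higher and 0.179% called lower. Again nothing is read from that count. The call was lost under 12 of 18 alternatives, among them leaving out vehicle replicate 2 or any of the 3 CWO replicates. In the authors' deposited table of 176 epidermis genes, Aldh1a3 is the 1 member listed, with the authors' mean normalised counts of 50 under vehicle and 188 under CWO, a fold change of 3.77.

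**Figure D4:**
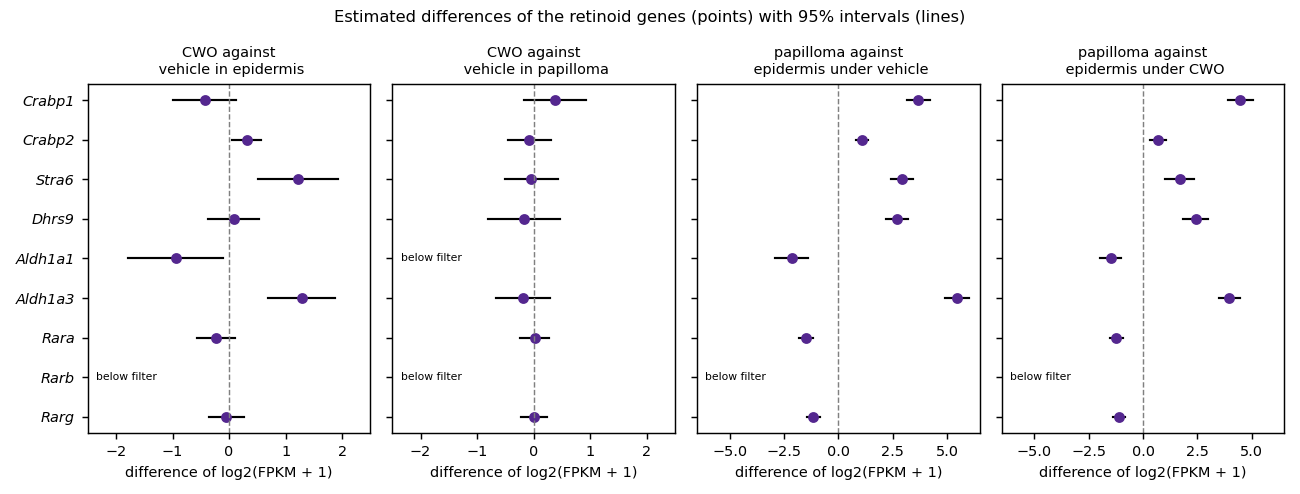
Differences of log2(FPKM + 1) (x axis) for each gene (y axis) in 4 comparisons, with points for the estimate and lines for its 95% interval. The panels on CWO have a narrower x axis than the tissue panels. In epidermis Aldh1a3 (1.29) and Stra6 (1.22) lie highest, in papillomas every interval spans 0, and between tissues Aldh1a3 and Crabp1 lie farthest above 0.

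CWO against vehicle in papillomas asked what 6 weeks of treatment did to established tumours. Crabp1, Crabp2, Stra6, Dhrs9, Aldh1a1, Aldh1a3, Rara and Rarg all overlapped between treatments. The ratio of means was 1.33 for Crabp1, 0.961 for Crabp2, 0.99 for Stra6, 0.884 for Dhrs9, 0.894 for Aldh1a3, 1.01 for Rara and 1.01 for Rarg. For Aldh1a1 it was 0.371, on 1 to 20 fragments per library, and for Rarb 0.493 with no overlap, on an FPKM of at most 0.274 in each papilloma library. For Aldh1a3 the log2(FPKM + 1) difference was -0.19 (SE 0.2, 95% interval -0.66 to 0.28), and for Stra6 it was -0.04 (SE 0.199, 95% interval -0.50 to 0.43). Of the 7 members above the filter 0 passed the threshold, where 0% of 12144 genes did by limma on log2(FPKM + 1). At an unadjusted p under 0.05 there were 306 genes, and limma-voom on recovered fragments also called 0, with 341 at an unadjusted p under 0.05. Aldh1a1 and Rarb were below the filter. In the authors' deposited papilloma table of 23284 genes, 2 had a DESeq adjusted p under 0.05, and neither is a member. Aldh1a1 had a fold change of 0.369 there, on mean normalised counts of 13.1 under vehicle and 4.83 under CWO.

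The effect of CWO in papillomas minus that in epidermis was -1.48 (SE 0.358, 95% interval -2.26 to -0.70) for Aldh1a3 and -1.26 (SE 0.407, 95% interval -2.15 to -0.37) for Stra6, on the log2(FPKM + 1) scale. Without both muscle-rich vehicle libraries these values were -1.83 and -0.78. Of the 8 members above the filter 0 passed the threshold by limma or by limma-voom, beside 0.0303% of 13186 genes called higher and 0.713% called lower by limma. At an unadjusted p under 0.05 there were 3 of the 8, beside 9.9% of all genes, and nothing is read from that count.

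The rest of the pathway was described from 63 genes in 6 lists. In papillomas against epidermis under vehicle, 49 of the 63 were above the filter, 11 rose, 26 fell and 12 did not pass the limma threshold, beside 31.8% of all genes called higher and 38.3% lower. Their median log2(FPKM + 1) difference was -0.380, beside -0.071 over all genes tested. Under CWO 50 were tested, 12 rose and 27 fell, beside 29.1% and 39.7% of all genes, with a median of -0.543 beside -0.116. Some genes passed the filter through a single tissue, with no library of the other tissue at an FPKM of 1, so the direction of their difference follows from the filter and it is given without a p. Under vehicle these were 5 genes (Lrat and Krt13, higher, and Aldh1a7, Bcmo1 and Bco2, lower), and under CWO Adh1 and Rbp4, both lower, were added. They are in the counts above, as 2 of the 11 that rose and 3 of the 26 that fell under vehicle. Under CWO they are 2 of the 12 that rose and 5 of the 27 that fell. Scaling the libraries moved the median of all genes under CWO to -0.006 by median ratios and 0.017 by quantiles. Under vehicle the median moved to 0.012 and 0.003. Differences between tissues are therefore read relative to shifts of this size. The calls over all genes shifted too, under vehicle from 4070 higher and 4904 lower to 4631 higher and 4573 lower by median ratios.

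Of 5 carriers and uptake genes tested under vehicle 3 rose and 1 fell, beside 31.8% and 38.3% of all genes. Fabp5, which can carry retinoic acid to the partner receptor Ppard, rose by 2.56 (SE 0.126, limma adjusted p = 1.21e-06), from an FPKM of 729 to 796 in vehicle epidermis to 4359 to 4471 in vehicle papillomas. Cd36, a scavenger receptor for fatty acids, was the 1 carrier that fell, with a difference of -2.21 (SE 0.286, limma adjusted p = 0.000195), and is named here after its value was seen. Rbp4, the blood carrier of retinol, did not pass the filter under vehicle and had a difference of -1.16 under CWO. Under CWO Fabp5 rose by 1.85 (SE 0.133, limma adjusted p = 6.79e-06).

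Enzymes of ester storage and carotene cleavage fell in 6 of 8 and rose in 2 of 8 under vehicle, beside 38.3% and 31.8% of all genes. These counts include Lrat, Bcmo1 and Bco2, whose direction follows from the filter. Lrat, which makes retinyl esters from retinol, was at 0 to 0.139 FPKM in all 6 epidermis libraries and at 3.54 to 8.39 in all 6 papilloma libraries, a difference of 2.76 under vehicle and 2.29 under CWO. Awat2, a wax and retinyl ester synthase of sebaceous glands, was lower in papillomas in both tissue comparisons, with a difference of -6.09 (SE 0.416, limma adjusted p = 5.93e-06) between vehicle libraries and -5.79 (SE 0.192, limma adjusted p = 2.01e-07) between CWO libraries. Sebaceous gland markers, 8 genes, fell in 8 of 8 in both tissue comparisons, with a sum of 2051 to 3407 in epidermis and 162 to 413 in papillomas, and their part in the fall of the storage enzymes was not tested.

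Of 18 enzymes tested that interconvert or oxidise retinol and retinal, 11 fell and 1 rose under vehicle, beside 38.3% and 31.8% of all genes, and 13 fell and 1 rose under CWO, beside 39.7% and 29.1%. The falls include Aldh1a7 in both comparisons and Adh1 under CWO, whose direction follows from the filter. Whether the list differs from other genes was not tested. Adh1, an alcohol dehydrogenase that oxidises retinol, fell with a difference of -4.58 (SE 0.288, limma adjusted p = 3.84e-06) under vehicle. Dhrs3, which reduces retinal back to retinol, had an FPKM of 87.8, 76.9 and 80.9 in vehicle epidermis and 15.3, 15.9 and 11 in vehicle papillomas, with a difference of -2.47 (SE 0.141, limma adjusted p = 2.31e-06). Dhrs7 fell with a difference of -2.35 (SE 0.135), and Aldh1a7 was at -2.74. Under CWO Dhrs3 (-2.87) and Dhrs7 (-2.86) also fell, and Adh1 was at -4.75. Rdh10, the main retinol dehydrogenase of the embryo, was at -0.28 (SE 0.135, limma adjusted p = 0.0952) under vehicle and at -0.43 (SE 0.142, limma adjusted p = 0.0243) under CWO, a call lost under both scalings. Aldh1a2 did not pass the filter.

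Of the breakdown enzymes 2 of 4 were tested. Cyp26b1, which clears retinoic acid, fell with a difference of -1.43 (SE 0.123, limma adjusted p = 1.96e-05) under vehicle, from an FPKM of 21, 26.8 and 21.6 to 7.3, 8.39 and 8.17. Cyp2s1, the other enzyme tested, rose by 1.30 (SE 0.17, limma adjusted p = 0.000205) and is named after its value was seen. Among 9 partner receptors and coregulators tested under vehicle 2 rose and 3 fell, beside 31.8% and 38.3% of all genes. Rxra, an Rxr partner of the Rar proteins, fell with a difference of -1.15 (SE 0.0899, limma adjusted p = 1.21e-05), and Ppard rose by 2.19 (SE 0.0977, limma adjusted p = 7.67e-07). Under CWO the differences were -1.55 for Cyp26b1, -0.99 for Rxra and 2.09 for Ppard, each past the threshold.

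Genes known to respond to retinoic acid in other settings were split under vehicle. Of 7 tested 2 rose and 4 fell, beside 31.8% and 38.3% of all genes. Krt13 is among the 2 that rose, and its direction follows from the filter. Krt13, a keratin of internal stratified epithelia that also marks progressing papillomas, was at 0 to 0.0741 FPKM in epidermis at 529, 1680 and 1918 in vehicle papillomas and at 180, 187 and 1254 in CWO papillomas. Hbegf, a growth factor, went from 3.01, 2.93 and 4.42 to 119, 110 and 121, a difference of 4.74 (SE 0.137, limma adjusted p = 1.07e-07). Rarres1 was lower in papillomas in both tissue comparisons, with a difference of -2.83 (SE 0.205, limma adjusted p = 8e-06) between vehicle libraries and -3.82 (SE 0.109, limma adjusted p = 1.15e-07) between CWO libraries.

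**Figure D5:**
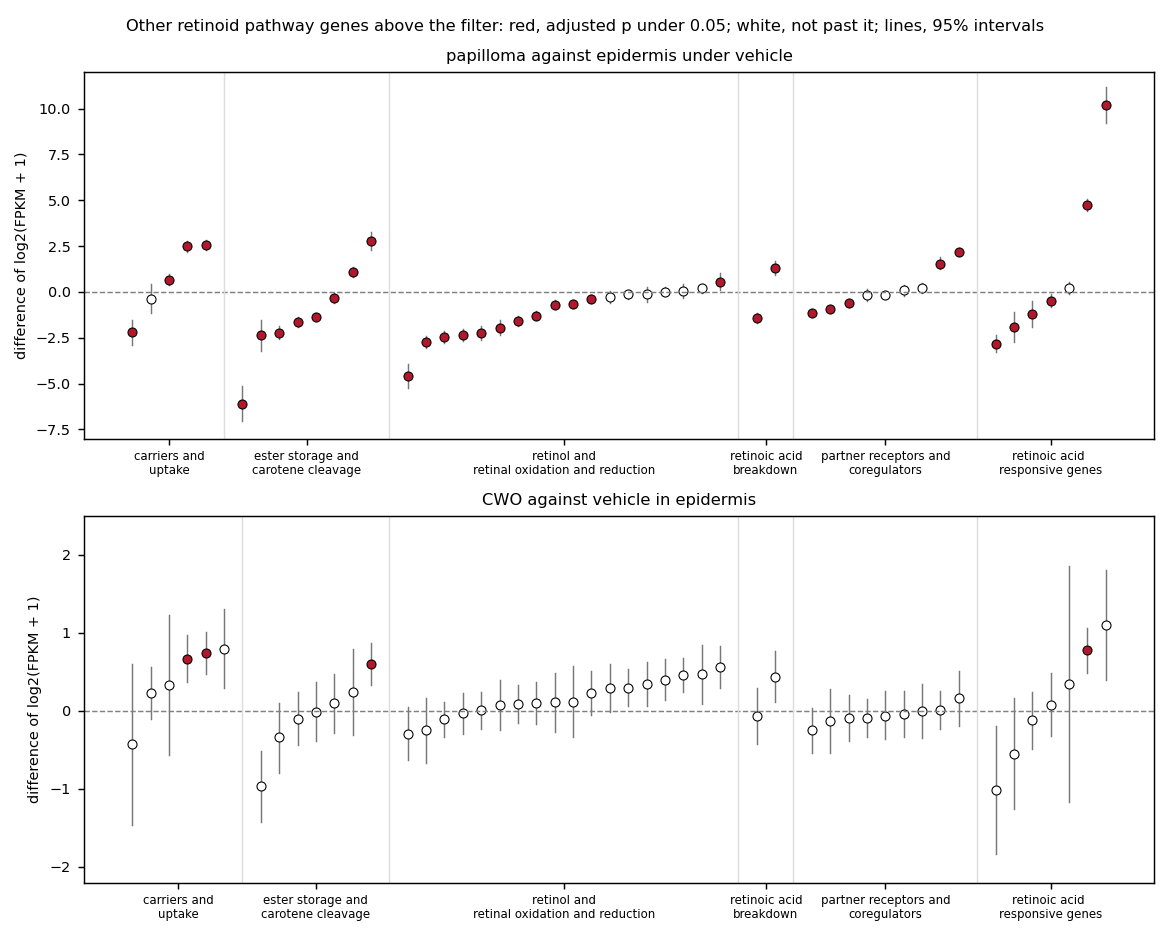
Differences of log2(FPKM + 1) (y axis) for the pathway genes above the filter, grouped by list (x axis) and sorted within it, in papillomas against epidermis under vehicle (top) and CWO against vehicle in epidermis (bottom, on a narrower y axis). Red points passed a limma adjusted p of 0.05, white points did not, and lines are 95% intervals. At the top 11 points are red above 0 and 26 below. They include Lrat, Krt13, Aldh1a7, Bcmo1 and Bco2, whose direction follows from the filter. At the bottom 4 are red, all above 0.

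In epidermis 4 of 49 pathway genes tested rose under CWO and 0 fell, beside 1.81% and 0.179% of all genes, with a median of 0.086 beside 0.024 over all genes tested. Cd36 rose by 0.74 (limma adjusted p = 0.0212), Rarres1 by 0.78 (limma adjusted p = 0.0219) and Fabp5 by 0.67 (limma adjusted p = 0.0449). Dgat1, an acyltransferase that can esterify retinol, rose by 0.60 (limma adjusted p = 0.0461). The sebaceous markers summed to 2901 to 3407 under CWO and 2051 to 2384 under vehicle, and their part in these changes was not tested. All 4 calls were lost without CWO replicate 1, with limma adjusted p from 0.116 to 0.202, and also without both muscle-rich vehicle libraries, which leaves 1 vehicle library. The differences were then 0.72 and 0.81 for Cd36, 0.76 and 0.57 for Rarres1, 0.65 and 0.72 for Fabp5, and 0.53 and 0.53 for Dgat1. The authors' deposited table lists Cd36, Rarres1 and Fabp5 as well, with fold changes of 1.7, 1.7 and 1.58.

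The fixed genes that did not pass in epidermis were Rbp4 at 0.33 (SE 0.395), Rdh10 at 0.11 (SE 0.164), Dhrs3 at -0.10 (SE 0.0981), Cyp26b1 at -0.06 (SE 0.156) and Rxra at -0.09 (SE 0.106) on the log2(FPKM + 1) scale. In papillomas 0 of 45 pathway genes tested passed the limma threshold, by limma-voom also 0, with 2 at an unadjusted p under 0.05, both lower. Their median was -0.085 beside -0.006 over all genes tested. Dhrs3 was at -0.50 (SE 0.156), Lrat at -0.43 (SE 0.232), Cyp26b1 at -0.18 (SE 0.0992), Rxra at 0.07 (SE 0.0698), Rdh10 at -0.04 (SE 0.099) and Fabp5 at -0.03 (SE 0.111).

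For the difference of the CWO effects between tissues, 0 of 51 pathway genes tested passed the limma threshold, and 1, Fabp5, was called by limma-voom. At an unadjusted p under 0.05 there were 12 of the 51, all lower, beside 9.9% of all genes, of which 74.3% were lower. Fabp5 was at -0.71 (SE 0.155, limma adjusted p = 0.0658). The others were Lrat at -0.47 (SE 0.279), Dhrs3 at -0.40 (SE 0.188), Rbp4 at -0.32 (SE 0.467), Rdh10 at -0.15 (SE 0.198), Cyp26b1 at -0.12 (SE 0.192) and Rxra at 0.16 (SE 0.119).

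Profiles most like each member's were found as the smallest root mean square difference of mean-centred log2(FPKM + 1) over the 12 libraries, among 12010 genes. Aldh1a3 was nearest to Psca (0.36), Degs2 (0.40) and Klk6 (0.40), the last at a mean FPKM of 31.5 in vehicle epidermis and 117 in CWO epidermis. Stra6 was nearest to Plk1 (0.25), Fscn1 (0.26) and Vegfa (0.26). Crabp1 was nearest to Col5a2 (0.37), a fibrillar collagen gene, Fst (0.38) and Cald1 (0.39), and Dhrs9 to Sgsm1 (0.21), Il1f9 (0.22) and Trex2 (0.23). Aldh1a1 was nearest to Klhl31 (0.16), a gene of skeletal muscle, Pfn2 (0.17) and Ctxn3 (0.18). Crabp2 was nearest to Pabpc1 (0.11), Runx2 (0.12) and Hsp90b1 (0.12), Rara to Plekhg5 (0.08), Dtx2 (0.09) and Fgd3 (0.10), and Rarg to Casp9 (0.08), Uap1l1 (0.08) and Atp8b2 (0.09). These are descriptions over libraries that share tissue and preparation.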

How the data were processed

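RNA was measured in 12 libraries. Per the submitters' processing notes the tools were bcl2fastq 1.8.4, TopHat2 2.0.4, Cufflinks 2.0.2 and DESeq, on mm9. The deposited per-library files give FPKM with a Cufflinks interval and status. The authors' 2 comparison tables give the mean normalised signal per group, the ratio (fold), its log2 value and p-values, per the file headers. The labels do not say how strand or multiply mapped reads were treated.

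A value whose status was not OK counted as missing, and symbols with more than 1 row (248) were summed. Fragments were recovered from FPKM and its interval, taken as 2 SD, and 67.9% to 69.2% of values under 500 fragments per library were whole within 0.02. Files start positions at 0, so 1 was added. In R 4.3.3, limma 3.58.1 was run on log2(FPKM + 1) with its intensity trend. That scale understates the change of low genes. The filter asked for FPKM 1 or more in 3 or more libraries of the fit and for 2 values per group, and genes of short non-coding RNA stayed out. The threshold was a two-sided Benjamini-Hochberg adjusted p under 0.05 over all genes. Epidermis replicates are separate samples, without a stated link to mice, so p-values there measure the spread between samples. On simulated data, 77% of genes changed by a log2 of 1 were recovered in the epidermis comparison and 88% in the vehicle tissue comparison. False calls made up 6.38% and 5.08% of the calls. Changes were placed only in genes with a mean log2(FPKM + 1) above 3, with independent noise in each library. Recovery was not measured for lower genes, such as Crabp1, Stra6, Dhrs9, Aldh1a1 and Aldh1a3 in epidermis.

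The members and lists were chosen with earlier results of these data known. Pathway genes named are 8 fixed ones (Rbp4, Lrat, Rdh10, Dhrs3, Aldh1a2, Cyp26b1, Rxra, Fabp5) and, per comparison, up to 4 per direction with the smallest p among those called. Of the genes first listed, 1 is not reported here. The 10 marker lists cover keratinocytes, skin appendages, stroma, muscle and immune cells.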

Additional observations from a re-analysis of the deposited data

How the results depend on the processing

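In both tissue comparisons every value of the members and named pathway genes under each alternative run (139 and 205 values under vehicle, 132 and 207 under CWO) had the sign of the reported value, and the counts of genes and members called stayed within 1.5 times. The members were chosen with their levels known, and many of the named pathway genes for their small p. For genes that passed the filter through 1 tissue the sign follows from the filter. Nothing is therefore read from the kept signs between tissues. In epidermis 135 of 139 member values kept their sign, and in papillomas 104 of 118.

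The epidermis count of 245 genes called became 162 by limma-voom, 44 when low values were kept, 656 with all 12 libraries in one fit and 12 without both muscle-rich vehicle libraries. Leaving out each library in turn gave 64 (without CWO replicate 1) to 684 (without vehicle replicate 3). The count of 1 member called became 0 with a pseudocount of 0.1, no filter, a filter of FPKM 5, median-ratio scaling, no trend, limma-voom or without both muscle-rich libraries, 2 with all 12 libraries in one fit, and 0 to 3 with each library left out. In papillomas the count of 0 genes became 1 with all 12 libraries in one fit. For the difference of effects, 98 genes became 63 with no filter, 49 by limma-voom, 17 without both muscle-rich libraries and 34 to 328 with each library left out, and 0 members became 0 to 1.

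The main fits treated the samples as unpaired. Deviations of same-numbered libraries correlated at 0.03, -0.44 and -0.36 in epidermis and at 0.28, 0.14 and 0.02 in papillomas. Papilloma CWO replicates 1 and 2 were best matched by the vehicle library of their own number, and the other CWO libraries were not. Correlations of so few libraries cannot decide whether replicate numbers pair the samples. With a replicate block, 54 genes and 0 members were called in epidermis, 4 genes in papillomas and 57 for the difference. The cause of these shifts was not tested. Depth limits Rarb, Aldh1a1 in papillomas and Crabp1 and Aldh1a3 in epidermis, which rest on few fragments.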
